A study of Mus musculus with 12 samples.

Results

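The genes by which sensory neurons detect and pass on itch were followed through dorsal root ganglia (DRG) of mice that had been housed in 2 ways and had undergone sham surgery or nerve injury. They are the Mas-related G protein-coupled receptors Mrgprd, Mrgprx1, Mrgpra3 and Mrgprb5, the cytokine receptor Il31ra, the histamine receptor Hrh1, and the peptide genes Nppb and Sst, chosen by name as 8 of the 44345 genes in the count table. RNA was sequenced from the sciatic DRG (L4 to L6) of C57BL/6 mice aged 5 to 8 weeks, in 12 samples that each pooled the ganglia of 2 mice. Mice lived for 10 days in standard housing (SH) or in an enriched environment (EE, housing with more space, objects and exercise than a standard cage), then had sham surgery or sciatic nerve axotomy (SNA, in which the nerve is cut), and DRG were collected 24 h after surgery. There were 3 samples each of SH Sham and EE Sham and of their injured counterparts, SH SNA and EE + SNA, and no group carried a genetic modification. All 8 genes passed the filter on low counts, as did 16238 genes in all. The study's text takes EE Sham from an earlier data set, which the sample labels do not mark, so that housing, surgery and data set cannot be told apart in any comparison that uses EE Sham. P-values here weigh a difference against the spread between pooled samples, of which each group had 3.

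Itch arises in small unmyelinated neurons of the DRG that fall into a few classes in the mouse. Neurons with Mrgprd, the receptor for beta-alanine, are non-peptidergic nociceptors that end in the epidermis. Neurons with Mrgpra3, the chloroquine receptor, also carry Mrgprx1, which is known in the mouse as MrgprC11 and binds the peptide BAM8-22. A further class carries Il31ra, the receptor chain for interleukin 31, together with Nppb, the natriuretic peptide that passes itch to the spinal cord, and Sst, somatostatin, which quiets inhibitory spinal neurons. Histamine acts through Hrh1, the H1 receptor, which is not limited to neurons. Mrgprb5 belongs to the same receptor family.

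The 4 Mrgpr genes lie on chromosome 7 and arose by duplication, so reads of one could in principle be counted on another. In the GENCODE annotation of GRCm38, Mrgpra3 lies at chr7:47588950-47601372, Mrgprx1 at chr7:48020971-48027597 and Mrgprb5 at chr7:48167983-48169019, all on the minus strand, and Mrgprd lies at chr7:145314835-145324086 on the plus strand. For each of them, the 100 bases of coding sequence (the length of 1 read) that were most alike in another Mrgpr gene were taken from the GENCODE transcripts. They are shown because they decide how far the values of these receptors can be kept apart, and capitals mark the bases that differ within a pair.
Mrgpra3, coding bases 62 to 161: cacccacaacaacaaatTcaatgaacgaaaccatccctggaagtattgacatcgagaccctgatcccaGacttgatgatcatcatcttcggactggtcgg
Mrgpra4, coding bases 5 to 104: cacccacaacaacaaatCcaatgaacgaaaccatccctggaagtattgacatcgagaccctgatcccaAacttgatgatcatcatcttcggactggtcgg
Mrgprb5, coding bases 783 to 882: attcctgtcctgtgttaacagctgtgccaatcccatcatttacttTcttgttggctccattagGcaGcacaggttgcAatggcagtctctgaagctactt
Mrgprb4, coding bases 780 to 879: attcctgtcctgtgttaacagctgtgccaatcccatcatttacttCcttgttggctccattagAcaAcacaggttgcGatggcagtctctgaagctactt
Mrgprx1, coding bases 325 to 424: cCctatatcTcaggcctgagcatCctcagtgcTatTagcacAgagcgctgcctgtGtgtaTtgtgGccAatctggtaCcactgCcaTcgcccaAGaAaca
Mrgpra1, coding bases 358 to 457: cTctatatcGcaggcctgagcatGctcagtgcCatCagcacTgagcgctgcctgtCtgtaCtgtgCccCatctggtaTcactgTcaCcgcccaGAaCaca
Mrgprd, coding bases 316 to 415: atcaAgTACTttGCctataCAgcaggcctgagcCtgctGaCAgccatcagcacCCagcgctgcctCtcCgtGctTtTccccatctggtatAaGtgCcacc
Mrgpra1, coding bases 346 to 445: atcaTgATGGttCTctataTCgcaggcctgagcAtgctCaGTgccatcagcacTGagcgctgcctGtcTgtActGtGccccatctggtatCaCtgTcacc
The closest stretch differed from its partner at 2 bases for Mrgpra3, 4 for Mrgprb5, 16 for Mrgprx1 and 23 for Mrgprd. No 100-base stretch of any of the 8 genes occurred unchanged in a transcript of another gene. Mrgpra3 and Mrgprb5 thus had the smallest margin, and their values carry that uncertainty. Mrgpra4 had 0 to 2 reads in each sample and Mrgpra1 1 to 8, whereas Mrgprb4 had 54 to 177, more than the 12 to 53 reads of Mrgprb5. Among the 4 family members reported here the closest pair, Mrgprx1 and Mrgpra3, differed at 17 bases of 100.

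The remaining genes stand apart from one another. Nppb lies at chr4:147985788-147987205 on the plus strand, Sst at chr16:23889573-23890958 on the minus strand, Il31ra at chr13:112519898-112594360 on the minus strand and Hrh1 at chr6:114397936-114483296 on the plus strand. Of the 8 genes only Il31ra shared exon sequence with another gene, 45 bases with Gm3226 on the same strand. Levels are given as CPM, the counts of a gene scaled to the size of its library with TMM. FPKM, which also divide by gene length, serve to compare one gene with another.

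Mrgprd was the most abundant of the 8 genes and Hrh1 the least, and genes of one class of neurons differed in level as well. In SH Sham, Mrgprd had 38.7 ± 3.16 FPKM (SD, n = 3), Nppb had 20.6 ± 0.884, Mrgprx1 had 13.6 ± 0.955 and Il31ra had 7.27 ± 0.647. Mrgpra3 followed with 6.27 ± 1.2 FPKM, Sst with 3.47 ± 0.334, Mrgprb5 with 2.25 ± 0.380 and Hrh1 with 0.478 ± 0.0875. The ranges of neighbours in this order did not overlap except those of Il31ra (6.59 to 7.88 FPKM) and Mrgpra3 (5.18 to 7.56). Over the whole series, the reads behind a value were 904 to 2433 per sample for Mrgprd but 12 to 53 for Mrgprb5, 15 to 61 for Sst and 17 to 45 for Hrh1. Levels of the last 3 genes are accordingly the least precise.

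**Figure D1:**
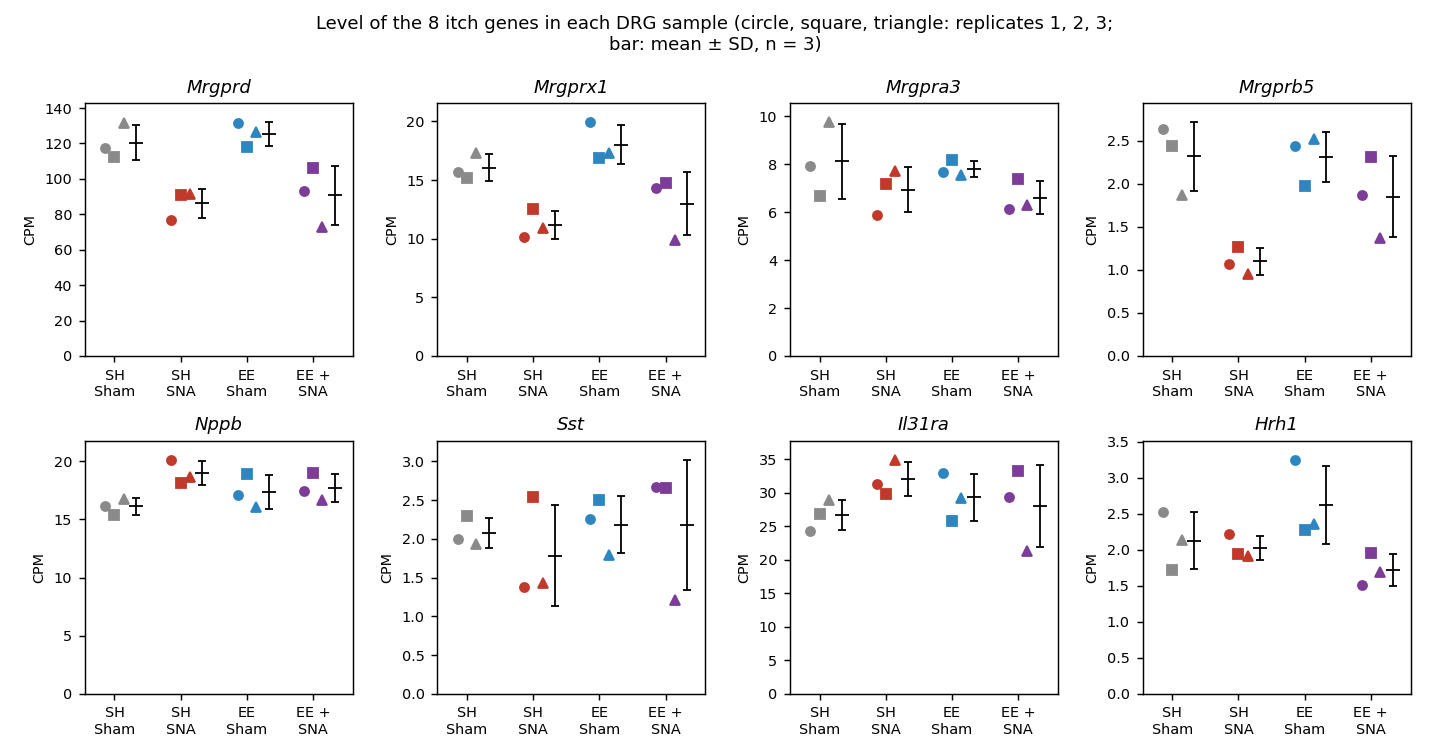
CPM of the 8 itch genes (vertical axes from 0) in each of the 12 samples by group, with points for replicates 1, 2 and 3 and bars for the mean ± SD of 3 samples. Mrgprd lies between 112.6 and 131 CPM in the 6 sham samples and between 72.9 and 106 in the 6 SNA samples, whereas Sst overlaps between sham and SNA samples within each housing, and Nppb and Il31ra overlap within EE but not within SH.

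The samples held the RNA of whole ganglia, and marker genes of other cells differed between them. The summed level of 10 genes expressed by sensory neurons in general was 9457 to 9584 CPM in SH Sham and 8870 to 9372 in SH SNA, and 9037 to 9377 in EE Sham and 8838 to 9193 in EE + SNA. By contrast 6 Schwann cell genes summed to 7281 to 8844 CPM in SH Sham, 7771 to 11336 in SH SNA, 6499 to 9012 in EE Sham and 9399 to 12210 in EE + SNA, and 5 of the 6 were higher after SNA over both housings. The sum of 7 mast cell genes was 7.76 to 17.1 CPM. EE + SNA replicate 3 stood apart with 572 CPM of 5 neutrophil genes, against 55.9 to 247.5 in all other samples, and with the highest Schwann cell sum, and SH SNA replicate 2 with 749.9 CPM of 5 skeletal muscle genes, against 2.46 to 135. Their part in the results below was not tested, and the values without each of these 2 samples are given where they matter. The 6 genes of injured neurons, Atf3 among them, were all higher after SNA in both housings. Counted reads per sample ranged from 11343579 to 22871460, with the most in EE + SNA replicate 2.

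Cutting the sciatic nerve was followed within a day by lower levels of Mrgprd, Mrgprx1 and Mrgprb5, while no gene of the 8 was higher beyond the adjusted threshold. With both housings in one fit (6 SNA against 6 sham samples, housing as a term, edgeR's quasi-likelihood test), 3 of the 8 genes were lower and 0 were higher at a Benjamini-Hochberg adjusted P-value of 0.05. Of all genes tested, 11% were lower and 11.4% higher by the same rule. At the study's unadjusted threshold of 0.05, 4 of the 8 were lower, Mrgpra3 being the fourth, against 16.6% of all genes. The log2 fold change was below 0 for 6 of the 8 genes, with a median of -0.28, against a median of 0.0071 over all genes. Between all sham and all SNA samples 2 of the 8 genes did not overlap and were lower, and of all genes 5.6% were. In a whole ganglion, fewer cells of a type and less RNA per cell cannot be told apart.

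Within standard housing 3 of the 8 genes were lower after SNA at the adjusted threshold, against 5.17% of all genes, and 2 others, Nppb and Il31ra, were higher at the unadjusted threshold only, against 13.4% of all genes. Groups did not overlap for 5 of the 8 genes, against 29.4% of all genes, and 3 of the 5 were lower after SNA and 2 higher, against 15.1% and 14.3% of all genes. Within EE, 1 of the 8 genes was lower at the adjusted threshold, against 2.33% of all genes, and 3, Mrgprd, Mrgprx1 and Hrh1, at the unadjusted threshold, against 10.4%. There the groups did not overlap for 4 of the 8 genes, all lower after SNA, against 12.3% of all genes.

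Mrgprd, the beta-alanine receptor of non-peptidergic nociceptors, was lower after injury in both housings. Its 3 SH Sham samples had 117, 113 and 131 CPM and its 3 SH SNA samples 76.8, 90.7 and 91.4 CPM. Every SH SNA sample thus lay below every SH Sham sample, and the log2 fold change was -0.48 ± 0.077 (SE, n = 3 and 3), a change of -28.3% with a 95% confidence interval from -36.1% to -19.5% (edgeR, adjusted P-value 0.00156). EE Sham samples had 131, 118 and 127 CPM, and EE + SNA samples had 93.2, 106 and 72.9 CPM. These groups did not overlap either, although replicate 3 of EE + SNA was well below its group. The log2 fold change within EE was -0.47 ± 0.11 (edgeR, adjusted P-value 0.0349), and this call was lost without EE Sham replicate 1 (0.0901), EE Sham replicate 3 (0.123) or EE + SNA replicate 1 (0.0914), and with limma on log2 FPKM (0.0893). Over both housings the log2 fold change was -0.47 ± 0.073 (n = 6 and 6, edgeR, adjusted P-value 0.000153). Without SH SNA replicate 2, the sample with skeletal muscle RNA, the log2 fold change in SH was -0.52 for Mrgprd (0.0027), and -0.61 for Mrgprx1 (0.0042) and -1.19 for Mrgprb5 (0.0245). The call of Mrgprd over both housings held whichever sample was left out, with adjusted values up to 0.000665.

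Mrgprx1, the BAM8-22 receptor, fell by a like amount from a lower level. SH Sham samples had 15.7, 15.1 and 17.3 CPM and SH SNA samples 10.2, 12.5 and 10.9 CPM. The groups were separate, and the log2 fold change was -0.52 ± 0.11 (edgeR, adjusted P-value 0.0084). With EE, the sham samples had 19.9, 16.8 and 17.3 CPM and the SNA samples 14.3, 14.7 and 9.91 CPM, again without overlap. The log2 fold change there was -0.47 ± 0.14, which missed the adjusted threshold (edgeR, adjusted P-value 0.0873). This value passed it under 3 of the alternative analyses, at 0.0369 with the likelihood ratio test, 0.0436 with all samples in one fit and 0.00641 without the filter on low counts. Under the others it did not pass, with edgeR adjusted P-values of 0.0687 to 0.237 when 1 sample was left out. Over both housings Mrgprx1 changed by -28.8% (95% confidence interval from -37.8% to -18.6%, edgeR, adjusted P-value 0.000879), and all 6 SNA samples lay below all 6 sham samples.

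Mrgpra3, the chloroquine receptor found in the same neurons as Mrgprx1, had lower means after SNA but did not pass the adjusted threshold in any comparison. SH Sham samples had 7.92, 6.67 and 9.76 CPM and SH SNA samples 5.89, 7.18 and 7.72 CPM, with overlap. EE Sham samples had 7.67, 8.20 and 7.55 CPM and EE + SNA samples 6.14, 7.40 and 6.29 CPM, which did not overlap. The log2 fold change over both housings was -0.23 ± 0.10 (edgeR, adjusted P-value 0.122), with a 95% confidence interval from -0.45 to -0.012. That interval overlapped the one of Mrgprd, from -0.63 to -0.32, and whether the falls of these genes differ was not tested.

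Mrgprb5 had the largest fall of the 8 genes in standard housing and the fewest reads. SH Sham samples had 2.64, 2.44 and 1.87 CPM and SH SNA samples 1.07, 1.27 and 0.955 CPM. The SH groups were separate, with 14, 15 and 12 reads in the SNA samples, and the log2 fold change was -1.08 ± 0.26 (edgeR, adjusted P-value 0.0164). That call was lost without SH Sham replicate 1 (0.0675), SH Sham replicate 2 (0.0531), SH SNA replicate 1 (0.0576) or SH SNA replicate 3 (0.0554), and with DESeq2 (0.0553), while the log2 fold change stayed between -1.22 and -0.98 whichever sample was left out. EE Sham samples had 2.44, 1.97 and 2.52 CPM and EE + SNA samples 1.87, 2.31 and 1.37 CPM, and these overlapped. Within EE the log2 fold change was -0.28 ± 0.26 (edgeR, adjusted P-value 0.582), and it ranged from -0.53 to -0.11 when 1 sample was left out, with -0.11 without EE + SNA replicate 3. Over both housings the value was -0.65 ± 0.20 (edgeR, adjusted P-value 0.0242), a call lost without SH Sham replicate 1 (0.0592), SH SNA replicate 1 (0.0621) or SH SNA replicate 3 (0.0606).

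**Figure D2:**
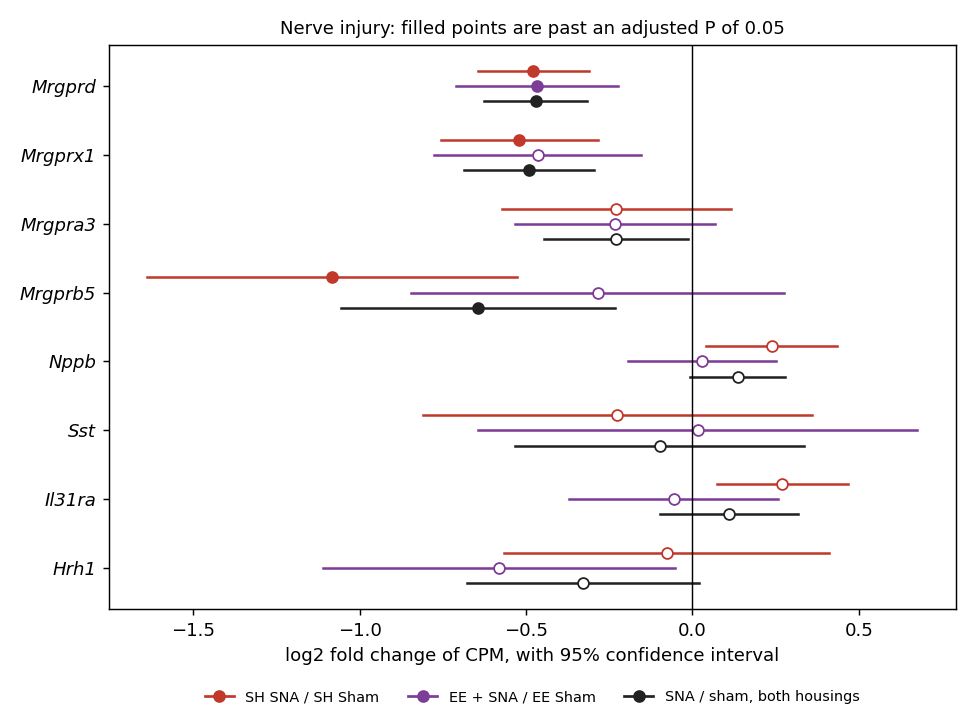
Log2 fold change of the 8 itch genes after SNA (points) with its 95% confidence interval (lines), in SH, in EE and over both housings. Filled points, which pass an adjusted P-value of 0.05 by edgeR, are found only for Mrgprd, Mrgprx1 and Mrgprb5, all below 0, and the intervals of Sst and Mrgprb5 are the widest.

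Neither peptide gene of the Il31ra class passed the adjusted threshold. Nppb had 16.2, 15.4 and 16.8 CPM in SH Sham and 20.1, 18.2 and 18.6 CPM in SH SNA, all SNA samples being higher. Its log2 fold change of 0.24 ± 0.090 did not pass the adjusted threshold (edgeR, adjusted P-value 0.119). In EE Sham, Nppb had 17.1, 18.9 and 16.1 CPM and in EE + SNA 17.4, 19 and 16.7 CPM, and the groups lay almost on one another (log2 fold change 0.029 ± 0.10, edgeR, adjusted P-value 0.91). Over both housings the log2 fold change of Nppb was 0.14 ± 0.068, with a 95% confidence interval from -0.0064 to 0.28 (edgeR, adjusted P-value 0.164).

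Sst varied more between samples of a group than between groups. It had 1.99, 2.30 and 1.94 CPM in SH Sham and 1.38, 2.53 and 1.43 CPM in SH SNA. Values in EE Sham were 2.26, 2.50 and 1.79 CPM and in EE + SNA 2.67, 2.65 and 1.21 CPM. The log2 fold change of Sst was -0.23 ± 0.27 in SH (edgeR, adjusted P-value 0.661) and 0.016 ± 0.30 in EE (0.985). Without SH SNA replicate 2 it was -0.56 in SH (0.236), and without EE + SNA replicate 3 it was 0.28 in EE (0.631). Over both housings the log2 fold change of Sst was -0.099 ± 0.21 (edgeR, adjusted P-value 0.78), and its 95% confidence interval from -0.53 to 0.34 includes a fall as large as that of Mrgprd.

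Il31ra, the interleukin 31 receptor chain, was higher after SNA in standard housing only at the unadjusted threshold. It had 24.3, 26.8 and 28.8 CPM in SH Sham and 31.3, 29.8 and 34.9 CPM in SH SNA. The groups were separate, with a log2 fold change of 0.27 ± 0.091 (edgeR, adjusted P-value 0.0785), which passed the adjusted threshold without SH SNA replicate 2 (0.0489). EE Sham samples had 32.8, 25.8 and 29.2 CPM and EE + SNA samples 29.4, 33.2 and 21.3 CPM, with the lowest value of the series in EE + SNA replicate 3. The log2 fold change in EE was -0.056 ± 0.14 (edgeR, adjusted P-value 0.87), and over both housings it was 0.11 ± 0.099 (edgeR, adjusted P-value 0.468).

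Hrh1, the H1 histamine receptor, had a lower mean after SNA within EE than in EE Sham. It had 2.52, 1.72 and 2.14 CPM in SH Sham and 2.22, 1.94 and 1.91 CPM in SH SNA, which overlapped (log2 fold change -0.077 ± 0.22, edgeR, adjusted P-value 0.876). EE Sham samples had 3.25, 2.28 and 2.36 CPM and EE + SNA samples 1.51, 1.96 and 1.69 CPM, and these did not overlap. The log2 fold change in EE was -0.58 ± 0.24 (edgeR, adjusted P-value 0.197), and over both housings it was -0.33 ± 0.17 (edgeR, adjusted P-value 0.169). EE + SNA replicate 3, the sample with the most neutrophil RNA, had the lowest Mrgprd, Mrgprx1, Sst and Il31ra of the series. Without it, Mrgprd was still lower after SNA in EE (log2 fold change -0.33, edgeR, adjusted P-value 0.0477) and over both housings (-0.41, 8.98e-05), Mrgprx1 had -0.31 in EE (0.201) and -0.43 over both housings (0.000956), and Il31ra had 0.11 in EE (0.696) and 0.19 over both housings (0.0726).

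The proportions between the genes within a sample do not depend on how samples are scaled, and 7 of them were computed after the values above had been seen. For every 100 reads of Mrgprd, the 6 sham samples had 12.7 to 16.0 reads of Nppb and the 6 SNA samples 18.0 to 26.2. By the same measure they had 20.7 to 25.0 reads of Il31ra in sham samples and 29.2 to 40.8 in SNA samples. In neither case did the ranges overlap. The reads of Mrgprx1 per 100 reads of Mrgprd ranged from 13.2 to 15.2 in sham samples and from 11.9 to 15.4 in SNA samples, and here the ranges overlapped. Since Mrgprd itself was lower in all SNA samples, 43.7% of all genes had a ratio to Mrgprd that was higher in every SNA sample than in every sham sample, so that this separation is not particular to Nppb and Il31ra. Against Mrgprx1, which was lower as well, Nppb had 85.5 to 112 reads per 100 in sham samples and 122 to 198 in SNA samples, a separation that 33.1% of all genes shared. Ranges overlapped for Mrgpra3 per 100 reads of Mrgprx1 (38.5 to 56.4 in sham and 42.9 to 70.8 in SNA samples). They also overlapped for Mrgprb5 per 100 reads of Mrgprx1 (10.8 to 16.8 and 8.76 to 15.7). For Il31ra per 100 reads of Nppb they nearly coincided (137 to 193 and 128 to 187). These ratios are descriptions without a test.

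**Figure D3:**
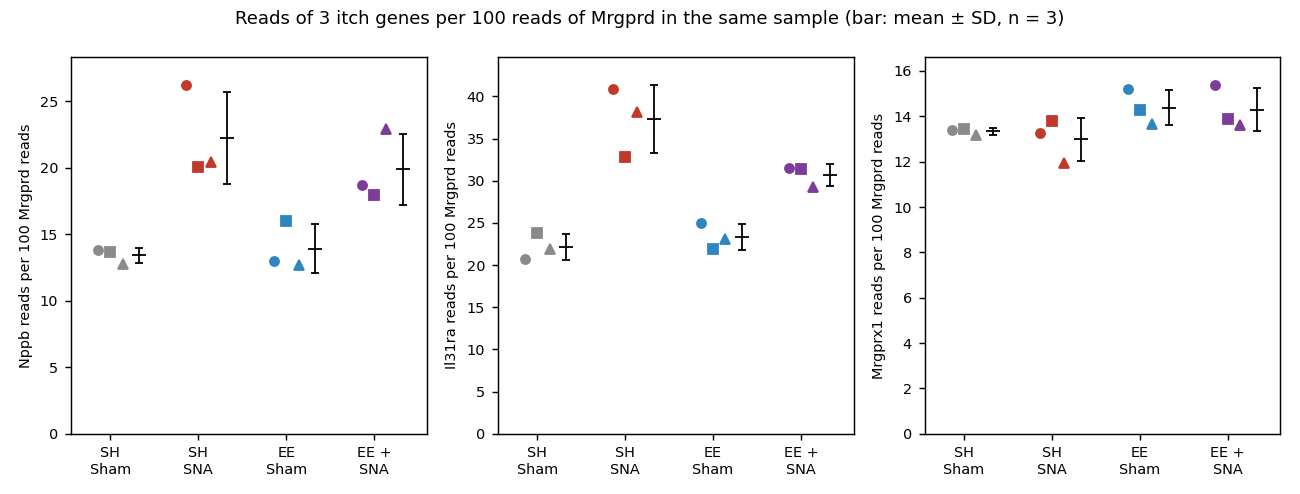
Reads of Nppb, Il31ra and Mrgprx1 per 100 reads of Mrgprd in the same sample (vertical axes from 0) by group, with points for the 3 replicates and bars for the mean ± SD. For Nppb and Il31ra all SNA samples lie above all sham samples, as they do for 43.7% of all genes set against Mrgprd, and for Mrgprx1 the groups overlap between 13.2 and 15.2.

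Against mice with neither treatment, enrichment followed by injury again had Mrgprd as the gene past the adjusted threshold. In EE + SNA against SH Sham, 1 of the 8 genes was lower at the adjusted threshold, against 5.63% of all genes, and 2 at the unadjusted threshold, against 12.6%. Mrgprd changed by -24.4% (log2 fold change -0.40 ± 0.11, n = 3 and 3, edgeR, adjusted P-value 0.0306), but this call was lost without SH Sham replicate 1 (0.0767), SH Sham replicate 3 (0.108) or EE + SNA replicate 1 (0.0768), in the fit that blocks on replicate (0.0691) and with limma on log2(FPKM + 1) or log2(FPKM + 0.1) (0.0714 and 0.0689). It held without EE + SNA replicate 3 (-0.27, 0.0471). For Mrgprx1 the log2 fold change was -0.30 ± 0.13 (edgeR, adjusted P-value 0.181), and -0.15 without EE + SNA replicate 3 (0.452). This comparison shares the SH Sham samples with that of SH SNA and the EE + SNA samples with that within EE, so its values are not a further test of them.

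Enriched housing by itself left none of the 8 genes past a threshold. In EE Sham against SH Sham, 0 of the 8 passed the adjusted or the unadjusted threshold (edgeR), against 0.00616% and 2.97% of all genes. Mrgprd differed by 0.056 ± 0.075 on the log2 scale, with a 95% confidence interval from -0.10 to 0.22, so that a change as large as that after SNA lay outside it. Intervals of the sparse genes were wider, from -0.22 to 0.78 for Hrh1 and from -0.50 to 0.47 for Mrgprb5, and leave room for larger changes. Over both surgeries, EE against SH again had 0 of the 8 genes past either threshold, against 0% and 4.69% of all genes. Mrgprx1 came nearest with a log2 difference of 0.19 ± 0.092 (edgeR, unadjusted P-value 0.0504, adjusted 0.997). It passed the unadjusted threshold without EE + SNA replicate 3 (0.25, unadjusted 0.00493) or SH SNA replicate 2 (0.22, unadjusted 0.0335). Neither value passed the adjusted threshold (0.9998 in both).

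Among injured ganglia, Mrgprb5 was the gene of the 8 that differed most between the housings, without passing the adjusted threshold. EE + SNA against SH SNA had 0 of the 8 genes past the adjusted threshold (edgeR), against 0% of all genes, and 1 past the unadjusted threshold, against 4.1%. That gene was Mrgprb5, with 1.87, 2.31 and 1.37 CPM in EE + SNA and 1.07, 1.27 and 0.955 in SH SNA, and a log2 fold change of 0.79 ± 0.29 (edgeR, adjusted P-value 0.989). Without EE + SNA replicate 3, Mrgprx1 (log2 fold change 0.38, edgeR, unadjusted P-value 0.00847) and Mrgprd (0.21, 0.0286) passed the unadjusted threshold beside Mrgprb5 (0.96, 0.00525). The adjusted P-value was 0.9998 for each of them. The interaction, which asks whether SNA moved a gene differently in the 2 housings, passed the adjusted threshold for 0 of the 8 genes, against 0% of all genes, and the unadjusted threshold for 1, Mrgprb5, against 2.61%. For Mrgprd the interaction was 0.021 ± 0.15 on the log2 scale, with a 95% confidence interval from -0.30 to 0.34, and for Mrgprx1 it was 0.062 ± 0.19, from -0.34 to 0.47. Il31ra, which was higher after SNA in SH at the unadjusted threshold only, had an interaction of -0.32 ± 0.19 with a 95% confidence interval from -0.72 to 0.078, so that the effects in the 2 housings were not shown to differ. Without EE + SNA replicate 3 this interaction was -0.16.

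**Figure D4:**
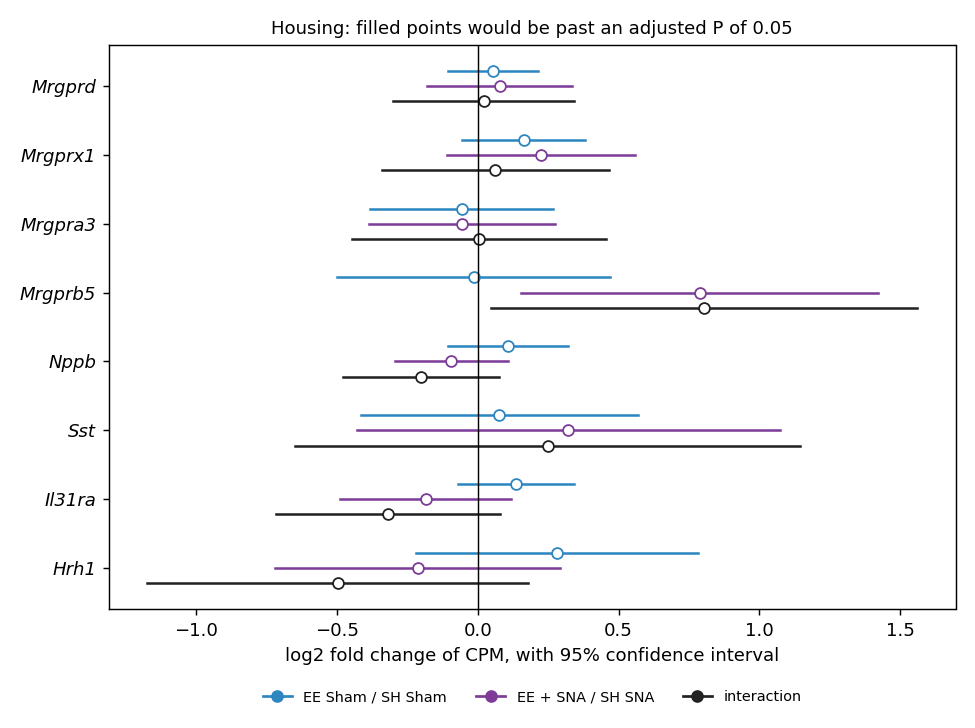
Log2 fold change of the 8 itch genes between housings in sham mice, between housings after SNA, and the interaction of housing and surgery, with 95% confidence intervals. No point is filled, as none passes an adjusted P-value of 0.05 by edgeR, and only the intervals of Mrgprb5 after SNA (0.15 to 1.42) and for the interaction (0.049 to 1.56) exclude 0.

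Other genes of the itch pathways moved in both directions after injury. The remaining Mrgpr family counts 16 genes in the list, of which 6 passed the filter on low counts and 0 of those passed the adjusted threshold over both housings (edgeR), and 1, Mrgpre, the unadjusted threshold. Mrgprb4, whose neurons respond to stroking of the skin and whose coding sequence is closest to Mrgprb5, had a log2 fold change of 0.14 ± 0.13 (edgeR, adjusted P-value 0.467), and Mrgpra9, Mrgpra2b and Mrgpre had -0.40 ± 0.29, -0.29 ± 0.15 and -0.13 ± 0.057. Of 23 further itch receptors and transducers, 22 were tested, 5 were lower and 4 higher at the adjusted threshold, against 11% and 11.4% of all genes, with a median log2 fold change of 0.075. Lower were Ednra, the receptor for the pruritogen endothelin 1 (-0.64 ± 0.10, edgeR, adjusted P-value 0.000174), the lysophosphatidic acid receptor Lpar5 (-0.59 ± 0.15, 0.00714), the serotonin receptor Htr7 (-0.50 ± 0.07, 8.04e-05), the histamine receptor Hrh3 (-0.45 ± 0.15, 0.041) and Plcb3, a phospholipase downstream of Mrgpr receptors (-0.29 ± 0.06, 0.00306).

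Higher were chains of the interleukin 4 and interleukin 13 receptor and their kinase. Il4ra had a log2 fold change of 0.46 ± 0.05 (edgeR, adjusted P-value 7.17e-06), Il13ra1 of 0.37 ± 0.08 (0.00184) and Jak2 of 0.19 ± 0.05 (0.00826), and Tlr7, an RNA sensor, of 0.48 ± 0.15 (0.0248). Il1rl1, the receptor for interleukin 33, had 0.63 ± 0.24 and did not pass (0.0719). Il4ra, Il13ra1 and Il1rl1 are also expressed outside neurons. The partners of Il31ra did not pass the threshold, with 0.026 ± 0.064 for Osmr, the second receptor chain, and -0.091 ± 0.045 for Jak1. Trpa1 and Trpv1, the channels through which itch receptors excite the neuron, had 0.08 ± 0.05 and -0.01 ± 0.05.

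Of 12 genes for itch peptides and for the receptors of natriuretic peptides and somatostatin, 10 were tested, 2 were higher and 3 lower, against 11.4% and 11% of all genes, with a median of -0.054. Nts, neurotensin, which is expressed with Nppb and Sst in the same class of neurons, was higher over both housings by 1.17 ± 0.14 on the log2 scale (edgeR, adjusted P-value 1.08e-05), while Nppb and Sst were not. It rose by 1.38 ± 0.19 in SH (0.000542) and by 0.94 ± 0.14 in EE (0.00293). Grp, gastrin-releasing peptide, was higher by 1.05 ± 0.36 (edgeR, adjusted P-value 0.0436) from a mean of 0.59 CPM. The somatostatin receptors Sstr1 and Sstr2 differed by -0.76 ± 0.24 (0.0289) and -0.50 ± 0.11 (0.00384), and Npr2, a natriuretic peptide receptor, by -0.13 ± 0.044 (0.0396), all as log2 fold changes.

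Of 13 genes of non-peptidergic nociceptors, the neurons that carry Mrgprd, 5 were lower and 2 higher, against 11% and 11.4% of all genes, with a median of -0.18. These counts leave out 1 gene of the list that is not reported here. Cd55 (-0.42 ± 0.06) and Gfra2, a receptor for neurturin (-0.38 ± 0.09), had falls of about the size of that of Mrgprd, with edgeR adjusted P-values of 8.55e-05 and 0.00347. P2rx3 (0.10 ± 0.06, 0.304), Plxnc1 (-0.08 ± 0.06, 0.371) and the sodium channel Scn11a (-0.18 ± 0.08, 0.108), also of this class, did not pass. Prkcq (-0.32 ± 0.075, 0.00513), Grik1 (-0.24 ± 0.067, 0.0167) and the sodium channel Scn10a (-0.24 ± 0.074, 0.0259) were lower as well, the last of them in a call lost when 1 of 4 samples was left out (up to 0.0724). Gfra1, a receptor for GDNF that injured neurons express, rose by 0.84 ± 0.05 (2.19e-09), and Ret, the kinase it signals through, by 0.17 ± 0.053 (0.0312), a call lost under 6 of 20 alternatives (up to 0.0775).

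Genes of other classes of sensory neurons moved in both directions too. Of 6 genes of peptidergic nociceptors 0 were lower (edgeR, 2 at the unadjusted threshold) and 1 was higher, Adcyap1, which encodes the peptide PACAP, with a log2 fold change of 1.14 ± 0.059 (edgeR, adjusted P-value 5.53e-10). Of 5 genes tested of C low-threshold mechanoreceptors 1 was lower, the calcium channel Cacna1h (-0.26 ± 0.081, 0.03), and 1 higher, Fam19a4 (0.14 ± 0.047, 0.0413). Of 7 genes of myelinated neurons 3 were lower and 1 higher. Lower were the transcription factor Runx3 (-0.36 ± 0.099, edgeR, adjusted P-value 0.0147), the neurofilament Nefh (-0.25 ± 0.055, 0.00327) and the calcium-binding Calb1 (-0.19 ± 0.05, 0.012), and higher was Spp1, osteopontin (0.48 ± 0.10, 0.00211). Of 10 pan-neuronal genes 4 were lower and 0 higher. All of these counts stand against the same 11% of all genes that were lower and 11.4% that were higher. The lists differ in size, and whether the classes differ was not tested. Leaving the pan-neuronal genes aside, 28 genes of the itch pathways and neuron classes were called beside the 8, of which 19 kept their call and 9 lost it under at least 1 of the 20 alternatives. The 9 were Hrh3, Grp, Npr2, Tlr7, Sstr1, Ret, Scn10a, Cacna1h and Fam19a4.

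**Figure D5:**
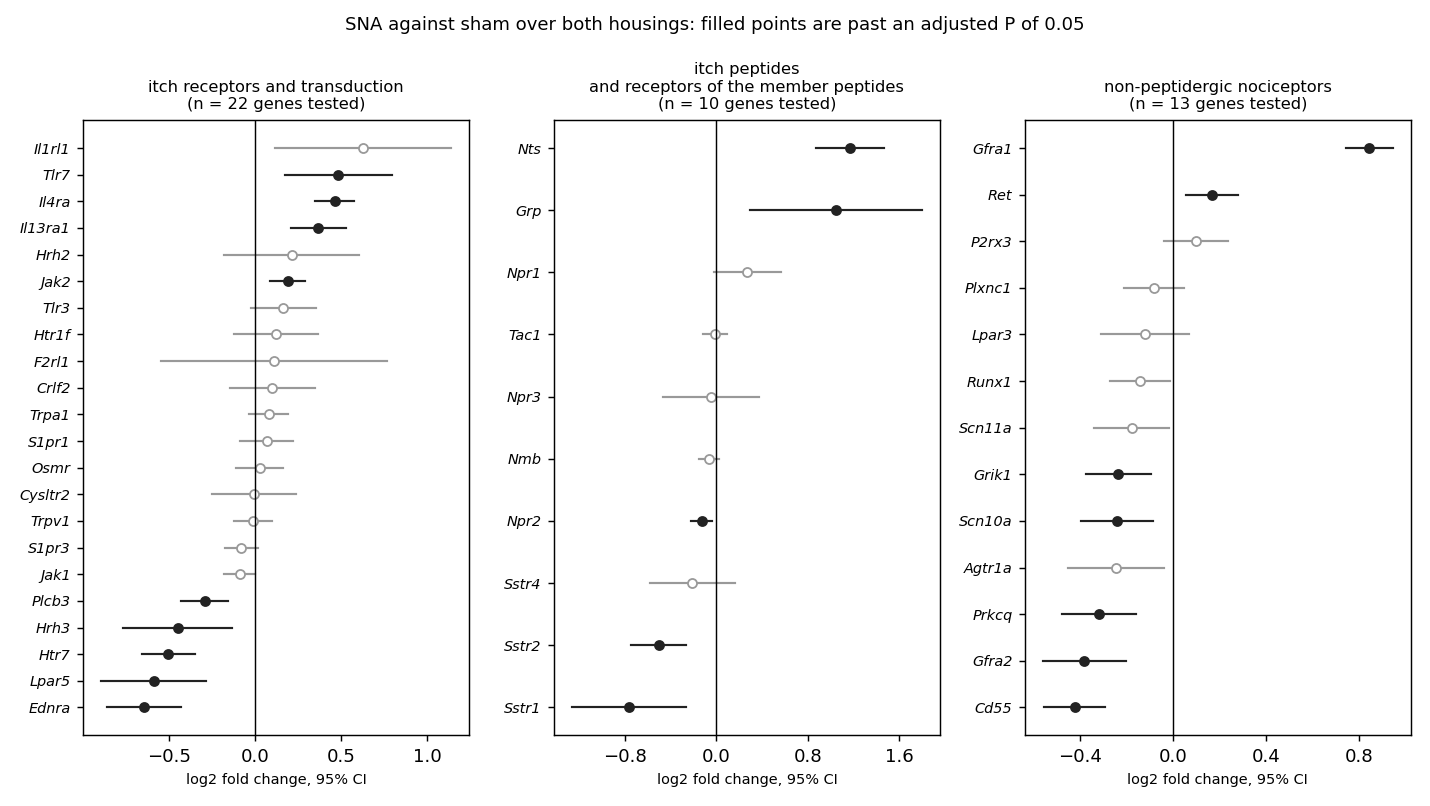
Log2 fold change after SNA over both housings, with 95% confidence intervals, of the tested genes for itch receptors and transduction, for itch peptides and receptors of natriuretic peptides and somatostatin, and of non-peptidergic nociceptors. Filled points pass an adjusted P-value of 0.05 by edgeR, with 4 above 0 and 5 below in the first list, 2 and 3 in the second and 2 and 5 in the third.

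Within groups, the genes of the 8 did not all vary together. After the group mean was removed, log2 CPM of Mrgprd and Mrgprx1 had Pearson's r of 0.909 over the 12 samples, Mrgprd and Il31ra had 0.844, and Mrgprx1 and Sst had 0.803. Mrgprd and Nppb had 0.228, and Nppb and Sst, peptides of one class of neurons, had 0.25. The samples differ in depth and in the share of glial RNA, which all pairs have in common, and the group means take up part of the freedom of the 12 values. EE + SNA replicate 3 had the lowest Mrgprd, Mrgprx1, Sst and Il31ra of the series, the genes of the highest correlations above. How far these correlations rest on that sample was not tested. Among 15344 genes with a mean of at least 1 CPM, Kcnt1 (0.979), Cds2 (0.977) and Pde11a (0.972) were most like Mrgprd. For Mrgpra3 they were Tsfm (0.931), Stpg1 (0.928) and Ap1m1 (0.926), and for Nppb they were Zdhhc1 (0.917), Frem1 (0.914) and Gm13402 (0.899). These genes were picked for the highest r among the 15344, and how high such values run by selection alone was not tested.

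Promoter windows (250 bases before to 50 after the RefSeq start, GRCm38.p6) were found for 7 of the 8 genes, 10 windows in all because Hrh1 has 4 of them and the others 1 each. The cAMP response element TGACGTCA, searched on both strands, is in 1.79% of 32851 windows and in 1 of these 10, that of Sst, whose element is a classical one. It is shown with its surroundings, element in capitals, because Sst passed no threshold here. By the RefSeq start (23890844) the element lies before the gene, but by the GENCODE start (23890958) it lies inside the span of Sst given above.
Sst, chr16:23890874-23890903, minus strand: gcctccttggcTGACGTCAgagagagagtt
The AP-1 site TGACTCA, through which Jun and Atf3 can act, is in 5.2% of all windows and in 1 of the 10, that of an alternative start of Hrh1. The RUNX core TGTGGT is in 16.8% of all windows and in 0 of the 10. A match describes the letters of these windows only.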

How the data were processed

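The data are mRNA sequencing (paired-end, 100 cycles) of 12 DRG samples in 4 groups. The authors aligned reads to mm10 with TopHat 2.0.12 and Bowtie2 2.2.3 and counted them per gene by HTSeq. The count table as deposited gives raw whole-number counts. Whether the counting used strand is not given in the sources used here. The authors also deposited FPKM, made from these reads by dividing by gene length and library total. Samples had 11343579 to 22871460 counts, and 8.49% to 9.28% of reads were left out as not unique, which bears on genes with near copies. A further 46.7% to 47.6% were left out because they fell in no annotated feature, and 0.314% to 0.370% as ambiguous. The reason for this larger loss was not tested.

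Counts were analysed with edgeR 4.0.16 under R 4.3.3. They were TMM scaled within the samples of each fit, filtered with filterByExpr (minimum 10 counts, total 15, 4 groups, leaving 16238 genes) and tested with the two-sided quasi-likelihood F test. Comparisons of 2 groups were fitted on their 6 samples, and the pooled effects and the interaction on all 12. P-values were adjusted over all genes tested (Benjamini-Hochberg). CPM were scaled over all 12 samples. Fits were tested on simulated data. The 8 genes and the gene lists were chosen with earlier results of these data known. Genes named beside the 8 are those of the lists past the adjusted threshold over both housings, some of the 4 largest changes of a list, and the 3 most alike in pattern to Mrgprd, Mrgpra3 and Nppb. Osmr, Jak1, Trpa1, Trpv1, P2rx3, Plxnc1 and Scn11a fall outside this rule and were chosen after their values were seen. One gene of the list for non-peptidergic nociceptors was left out of it, for a reason other than its values but after they were seen, and is not reported here.

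Replicate numbers were checked for pairing by the correlation between samples of deviations from group means. Between SH Sham and EE Sham same-numbered samples had r of 0.331, 0.137 and 0.111, and differently numbered samples up to 0.194. Between SH SNA and EE + SNA same-numbered samples had 0.057, 0.113 and 0.126, and differently numbered samples up to 0.040. The labels do not say what a number marks, and the main fits had no term for it. For the other pairs of groups some same-numbered samples had a negative r, down to -0.235. Alternatives were the likelihood ratio test, DESeq2 1.42.0, library size scaling, no filter, at least 10 counts in every sample, the replicate number as a block, all 12 samples in one fit, limma 3.58.1 on log2(FPKM + 1) and log2(FPKM + 0.1), and each sample left out in turn. Sequences come from GENCODE transcripts and RefSeq promoters of GRCm38. Protein sequences were not used here.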

Additional observations from a re-analysis of the deposited data

Results flagged for a closer look

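Mrgprb5 was singled out because its response to SNA differed between the housings by the interaction term at the study's unadjusted threshold. The interaction was 0.80 on the log2 scale, with a 95% confidence interval from 0.049 to 1.56 (edgeR, unadjusted P-value 0.0383, not past the adjusted threshold). Its log2 fold change after SNA was -1.08 in SH and -0.28 in EE, and it had 12 to 53 reads per sample. After adjustment the difference was not shown, and leaving out 1 sample at a time moved it between 0.57 and 0.97. No test for an outlying value was run within groups, as groups of 3 are too small for it.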

How the results depend on the processing

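The number of the 8 genes called after SNA within EE was 1 and became 2 with the likelihood ratio test, without the filter and with all samples in one fit, 0 with limma on log2(FPKM + 1) or log2(FPKM + 0.1), and 0 to 1 when 1 sample was left out. For EE + SNA against SH Sham it was 1 and became 0 with the replicate block (Mrgprd -0.42, adjusted P-value 0.0691) and with limma at either pseudocount, and 0 to 1 when 1 sample was left out. It stayed at 2 to 4 after SNA in SH and at 2 to 3 over both housings, and at 0 in the housing comparisons and the interaction. The replicate block ended no other call of the 8 genes.

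Signs turned for results whose log2 fold change was at most 0.099 in size. Sst in EE + SNA against EE Sham became -0.039 with the replicate block, -0.052 with log2(FPKM + 1) and -0.083 with log2(FPKM + 0.1), and against SH Sham -0.011 and -0.033 with these 2. The interaction of Mrgpra3 became -0.0032 with DESeq2, -0.015 and -0.021 with FPKM. Nppb in EE against SH became -0.0027 with library size scaling and -0.0070 and -0.0072 with FPKM.
When 1 sample was left out, the sign also turned in the following ranges. In SH SNA against SH Sham, Hrh1 had -0.20 to 0.062. In EE + SNA against EE Sham, Nppb had -0.042 to 0.096, Sst -0.21 to 0.28 and Il31ra -0.23 to 0.11. Against SH Sham, Sst had -0.11 to 0.36 and Il31ra -0.076 to 0.24. In EE Sham against SH Sham, Mrgpra3 had -0.17 to 0.092, Mrgprb5 -0.15 to 0.097 and Sst -0.047 to 0.20. In EE + SNA against SH SNA, Mrgprd had -0.057 to 0.21 and Mrgpra3 -0.16 to 0.031. The interaction had -0.11 to 0.15 for Mrgprd, -0.053 to 0.21 for Mrgprx1 and -0.15 to 0.12 for Mrgpra3. Over both housings, Sst after SNA had -0.21 to 0.017. In EE against SH over both surgeries, Mrgpra3 had -0.11 to 0.015, Nppb -0.036 to 0.038, Il31ra -0.082 to 0.060 and Hrh1 -0.060 to 0.11. The cause of these changes was not tested. The 12 to 61 reads per sample of Mrgprb5, Sst and Hrh1 limit their precision.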
